A study of Homo sapiens with 4 samples.

Results

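The genes described here encode HSF1, the transcription factor of the heat shock response, and 8 heat shock proteins of the cytosol and mitochondria: HSPA8, HSP90AA1, HSP90AB1, HSPH1, DNAJB1, HSPB1, HSPD1 and HSPE1. Their probe sets, the groups of probes that each give 1 value on the array, were taken where the platform annotation gave exactly 1 gene symbol and that symbol was 1 of the 9. This gave 21 of the 54613 non-control probe sets and 8 of the 19775 genes with such a probe set. HSPA8 had 0 of them, because each of the 4 probe sets annotated to it also carries small nucleolar RNA genes, so no value is given for HSPA8. HSPD1 had 5 probe sets, HSP90AA1 4, HSP90AB1 and HSPH1 3 each, HSF1 and DNAJB1 2 each, and HSPB1 and HSPE1 1 each.

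The RNA came from CaSki, a cervical squamous carcinoma cell line that carries human papillomavirus. Cells overexpressing ZNF750, a zinc finger factor of squamous epithelium, were compared with cells overexpressing GFP, both after lentiviral transfer, with 2 arrays in each group and 4 in all. Both groups grew in the same medium, for which the labels list serum at 0%. The promoter of the vectors, the time after transfer and how the duplicate cultures were made are not given in the sources used here. The p-values therefore measure the spread between these arrays, and a lower signal from fewer cells of a kind cannot be told apart from less RNA per cell.

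The single ZNF750 probe set lay at log2 values of 2.23 and 2.29 on the ZNF750 arrays, against 2.13 and 2.37 on the GFP arrays, and so did not show the introduced gene. Whether its probes lie in the introduced sequence is not known here, so it does not check the labels. Of 8 listed epithelial markers, KRT6A, KRT17 and TP63 had no probe set of 1 symbol. The 5 measured averaged between 11.11 (CDH1) and 12.97 (KRT5). Each of the 5 was higher on both ZNF750 arrays than on either GFP array. Their mean level was 12.21 and 12.15 on the ZNF750 arrays, against 11.83 and 11.79 on the GFP arrays. KRT14 (difference 1.10 ± 0.0350, SE, 2.15-fold, limma adjusted p = 2.34e-05) and KRT5 (0.24 ± 0.0314, adjusted p = 0.00446) passed, and DSP, EPCAM and CDH1 did not. All 4 leukocyte markers, 4 of 5 fibroblast markers and 3 of 4 endothelial markers averaged under 6. The gap between the 3′ and 5′ ACTB control probe sets (3′ minus 5′), which grows as RNA is shorter or labelling less complete, was 3.76 and 3.35 on the ZNF750 arrays, against 3.03 and 2.81 on the GFP arrays. For GAPDH it was 0.85 and 0.80 on the ZNF750 arrays, against 0.63 and 0.61 on the GFP arrays. Both control gaps were therefore larger on every ZNF750 array than on either GFP array. The part of these gaps and of the epithelial markers in the results below was not tested.

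Heat shock proteins are chaperones that hold, fold or unfold other proteins. HSP70-type chaperones bind exposed hydrophobic stretches in a cycle of ATP hydrolysis that J-domain proteins start and HSP110-type proteins help to end, and HSP90 acts later, on kinases, steroid receptors and HSF1 itself. In mitochondria HSPD1 forms a barrel that HSPE1 closes as a lid. Under stress HSF1 trimerises and binds inverted repeats of GAA in the promoters of these genes, while cancer cells often keep several of them high without heat.

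Because HSF1 binds such repeats, the promoter windows of the members in RefSeq (GRCh38.p14) were read for them, each window running from 250 bases before to 50 bases after a transcript start. A site of 3 alternating units (GAANNTTCNNGAA or TTCNNGAANNTTC, which together cover both strands) occurred in 172 of all 35116 windows, or 0.49%. Among the members it occurred in 4 of 14 windows and in 4 of the 8 genes with a window, HSP90AA1, HSP90AB1, HSPA8 and HSPD1. The share over all genes with a window was 0.608%. HSPA8 is among these 8, so they are not the same as the 8 measured genes. Sites of 2 units (GAANNTTC or TTCNNGAA, each the same on both strands and contained in the longer site) occurred in 13.5% of all windows, and in 7 of the 14 member windows. By gene this was 6 of the 8, adding DNAJB1 and HSPB1, beside 16.2% of all genes with a window. The 3-unit sites of the genes with a called fall are printed here 5′ to 3′ with the matched units in capitals. So are the 2-unit sites before a start of DNAJB1. DNAJB1 read higher in ZNF750 cells and HSPB1, whose 2-unit site is not printed, read lower, and neither was called. The printed sites were thus picked by the array values, and a relation between site and change was not tested. In HSPD1 overlapping matches run together. Each printed site lies inside the RefSeq bounds of its gene, before an inner start and not before the outermost one. The outermost start is chr2:197500274 for HSPD1 and chr6:44246194 for HSP90AB1.
HSP90AB1, chr6:44247770-44247798, plus strand: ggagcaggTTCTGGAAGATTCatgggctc
HSP90AB1, chr6:44247823-44247851, plus strand: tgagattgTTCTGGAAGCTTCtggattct
HSP90AA1, chr14:102087112-102087140, minus strand: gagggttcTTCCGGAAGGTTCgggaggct
HSPD1, chr2:197500061-197500090, minus strand: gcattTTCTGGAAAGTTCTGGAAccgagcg
DNAJB1, chr19:14518459-14518482, minus strand: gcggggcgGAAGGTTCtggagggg
DNAJB1, chr19:14518429-14518452, minus strand: gggctctgGAAGCTTCcgccggac
HSPD1 and HSPE1 lie head to head, and the 104 bases between their outermost starts, shown because both genes share them, hold 0 matches to either site.
HSPD1 to HSPE1, chr2:197500275-197500378, plus strand: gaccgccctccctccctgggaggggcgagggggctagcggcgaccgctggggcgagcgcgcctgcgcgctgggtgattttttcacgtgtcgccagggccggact
A match describes these letters only and says nothing of binding in CaSki cells.

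In ZNF750 cells 3 of 3 probe sets of HSP90AB1, 2 of 4 of HSP90AA1 and 2 of 5 of the mitochondrial HSPD1 fell. The brightest HSP90AA1 probe set was not among them. HSF1, HSPH1, DNAJB1, HSPB1 and HSPE1 did not pass on any probe set. Over the 21 probe sets, 7 were lower in ZNF750 cells, 0 were higher and 14 were not called (limma, Benjamini-Hochberg over all 54613 probe sets, adjusted p under 0.05). At an unadjusted limma p under 0.05, 13 were lower and 2 higher. The shares of all probe sets and genes at that threshold are not given here. This and later unadjusted counts therefore cannot be set beside such a share. The 7 are 33.3% of the members' probe sets, beside 7.19% of all probe sets called lower and 4.30% called higher. Probe sets of 1 gene share their target, and by the brightest probe set of each gene 2 of 8 genes were lower, or 25.0%, and 0 were higher (1 at an unadjusted limma p under 0.05), beside 8.75% of all genes lower. The median difference, ZNF750 minus GFP on the log2 scale, was -0.22 over the 21 probe sets and 0.026 over all probe sets. Of the 17 member probe sets with a mean of 6 or more, 11 were lower when bright probe sets were fitted alone, or 64.7%, beside 20.8% of bright probe sets. The groups did not overlap, with ZNF750 below GFP, in 15 of 21 probe sets, beside 24.3% of all probe sets, and with ZNF750 above GFP in 3, beside 29.9%.

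The array count limits these calls. Without GFP replicate 1 or without GFP replicate 2, 0 of the 7 kept their call, and then 11 and 9 of all probe sets passed. Without ZNF750 replicate 1, 4 kept it, and without ZNF750 replicate 2, 4 kept it. Among all calls 62.6% were lower, but 43.9% after centring the arrays on brighter probe sets, a change under which 6 of the 7 kept their call.

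**Figure D1:**
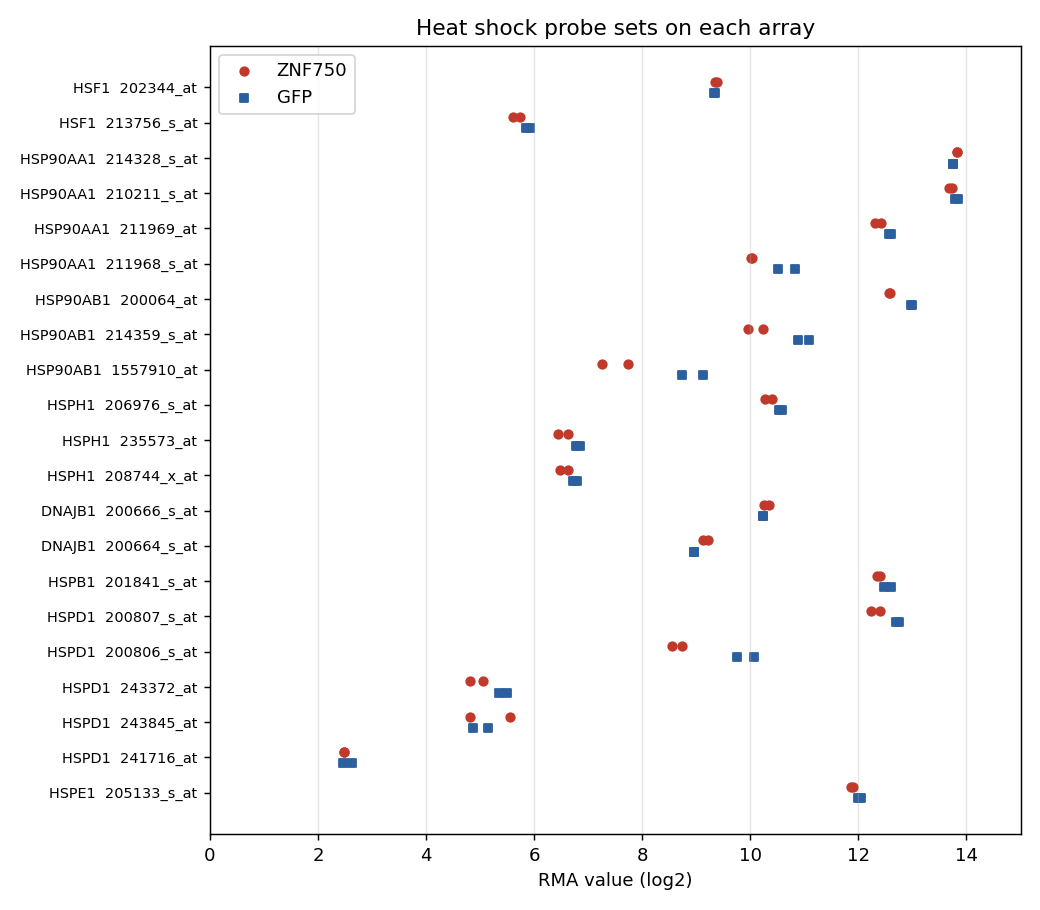
Log2 RMA value (x axis) of each of the 21 heat shock probe sets (rows, by gene) on the 2 ZNF750 arrays (circles) and the 2 GFP arrays (squares). The ZNF750 values of all 3 HSP90AB1 probe sets lie left of the GFP values, and the values of HSF1 202344_at lie together at 9.33 to 9.38.

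HSF1, the regulator, was measured by 2 probe sets and neither passed. The brighter one, 202344_at, read 9.38 and 9.34 on the ZNF750 arrays, against 9.35 and 9.33 on the GFP arrays. The 4 values overlapped, and the difference was 0.02 (95% interval -0.11 to 0.15, limma adjusted p = 0.866). The dimmer one, 213756_s_at, read 5.60 and 5.73 on the ZNF750 arrays, against 5.85 and 5.92 on the GFP arrays. Here both ZNF750 values were lower, by 0.22 on average (difference -0.22 ± 0.106, SE, adjusted p = 0.236). These are transcript levels of a factor whose activity is known to be set mainly after translation.

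HSP90AB1 encodes the constitutive cytosolic HSP90, and all 3 of its probe sets fell. Probe set 200064_at read 12.57 and 12.59 on the ZNF750 arrays, against 12.99 and 12.97 on the GFP arrays. The replicates of each group lay close together and the groups apart, and the difference was -0.40 ± 0.0326 (SE), a 1.32-fold fall (limma adjusted p = 0.000868). Probe set 214359_s_at read 9.95 and 10.23 on the ZNF750 arrays, against 11.09 and 10.89 on the GFP arrays, a difference of -0.90 ± 0.0975 (adjusted p = 0.00246). Probe set 1557910_at read 7.25 and 7.74 on the ZNF750 arrays, against 9.13 and 8.73 on the GFP arrays, a difference of -1.43 ± 0.177, or 2.70-fold lower (adjusted p = 0.00376). Both ZNF750 arrays were below both GFP arrays for each probe set, but the sizes differed: the 95% interval of 200064_at ended at -0.48, and those of the other probe sets began at -0.67 and -1.02. The mean of the 3 probe sets gave -0.91 (adjusted p = 0.00198). Without either GFP array none of the 3 passed, with differences for 200064_at of -0.39 and -0.42 (adjusted p = 0.0961 and 0.0802), and 1557910_at also missed without ZNF750 replicate 1 (-1.19, adjusted p = 0.0526). Probe set 200064_at missed when limma's variance prior had no intensity trend (adjusted p = 0.0632).

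HSP90AA1 encodes the stress-inducible cytosolic HSP90, and its 4 probe sets did not move one way. The 2 brightest did not pass. Probe set 214328_s_at read 13.83 and 13.83 on the ZNF750 arrays, against 13.76 and 13.76 on the GFP arrays, a difference of 0.07 ± 0.0271 (limma adjusted p = 0.167) that passed as higher after cyclic loess (0.13, adjusted p = 0.0212). Probe set 210211_s_at read 13.73 and 13.67 on the ZNF750 arrays, against 13.84 and 13.78 on the GFP arrays, a difference of -0.11 ± 0.0347 (adjusted p = 0.0964) that passed as lower with dim probe sets left out (0.0471). The values of these probe sets were thus higher for one and lower for the other, without overlap in either. The remaining probe sets fell.

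For HSP90AA1, probe set 211969_at read 12.30 and 12.42 on the ZNF750 arrays, against 12.56 and 12.61 on the GFP arrays, a difference of -0.23 ± 0.0480 (limma adjusted p = 0.0240). This call ended after cyclic loess (-0.16, adjusted p = 0.0661), after centring on brighter probe sets (-0.17, 0.0717) and without the intensity trend (0.192). Probe set 211968_s_at read 10.04 and 10.02 on the ZNF750 arrays, against 10.82 and 10.51 on the GFP arrays, a difference of -0.63 ± 0.0920, or 1.55-fold lower (adjusted p = 0.00637). It missed the threshold without the intensity trend (adjusted p = 0.0636). Leaving out any 1 array ended both calls, and the differences then ran from -0.17 to -0.29 for 211969_at and from -0.48 to -0.79 for 211968_s_at. As a gene, HSP90AA1 therefore read 0.07 by its brightest probe set and -0.23 by the mean of its probe sets (adjusted p = 0.0118).

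HSPH1 encodes an HSP110-type chaperone that exchanges nucleotide on HSP70. Its brightest probe set, 206976_s_at, read 10.27 and 10.41 on the ZNF750 arrays, against 10.59 and 10.54 on the GFP arrays. The groups did not overlap, and the difference of -0.23 ± 0.0597 lay just outside the threshold (limma adjusted p = 0.0509). It passed when dim probe sets were left out (adjusted p = 0.0245) and when each gene entered once by its brightest probe set (adjusted p = 0.0337). Probe sets 235573_at and 208744_x_at gave -0.28 ± 0.0979 and -0.21 ± 0.0972 (adjusted p = 0.121 and 0.224). The 3 differences of HSPH1 lay within 1 SE of one another.

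DNAJB1 encodes the J-domain partner of HSP70 that HSF1 induces, and was the gene whose probe sets both read higher in ZNF750 cells. Probe set 200666_s_at read 10.26 and 10.34 on the ZNF750 arrays, against 10.23 and 10.23 on the GFP arrays, a difference of 0.08 ± 0.0511 (limma adjusted p = 0.407), which was 0.12 without ZNF750 replicate 1 and 0.03 without ZNF750 replicate 2. Probe set 200664_s_at read 9.12 and 9.21 on the ZNF750 arrays, against 8.95 and 8.96 on the GFP arrays, a difference of 0.21 ± 0.0611 (adjusted p = 0.0698). Neither passed, and the second passed as higher after cyclic loess (0.27, adjusted p = 0.0288), after centring on brighter probe sets (0.27, 0.0208) and with dim probe sets left out (0.0357). Its 95% interval ran from 0.07 to 0.35.

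HSPB1 encodes the small heat shock protein HSP27, which holds unfolded proteins without ATP and is abundant in squamous epithelium. Its probe set, 201841_s_at, read 12.34 and 12.40 on the ZNF750 arrays, against 12.48 and 12.61 on the GFP arrays. Both ZNF750 values were below both GFP values, with a difference of -0.17 ± 0.0504 that did not pass (limma adjusted p = 0.0705). It passed with dim probe sets left out (adjusted p = 0.0340), and it was -0.24 without GFP replicate 1 and -0.11 without GFP replicate 2.

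HSPD1, the HSP60 subunit of the mitochondrial barrel, had the largest fall of the 21 probe sets after HSP90AB1 1557910_at. Probe set 200807_s_at read 12.40 and 12.23 on the ZNF750 arrays, against 12.76 and 12.69 on the GFP arrays, a difference of -0.41 ± 0.0581, or 1.33-fold lower (limma adjusted p = 0.00565). Probe set 200806_s_at read 8.73 and 8.56 on the ZNF750 arrays, against 10.07 and 9.76 on the GFP arrays, a difference of -1.27 ± 0.105, or 2.41-fold lower (adjusted p = 0.000929). The groups were apart in both, and the 95% intervals, -0.55 to -0.28 and -1.52 to -1.03, did not meet. Without GFP replicate 1 the differences were -0.38 and -1.12 (adjusted p = 0.167 and 0.0935), and without GFP replicate 2 they were -0.45 and -1.42 (adjusted p = 0.118 and 0.0720), so neither passed. Without ZNF750 replicate 2, 200807_s_at missed (-0.33, adjusted p = 0.0625), as it did without the intensity trend (0.0842).

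The other 3 HSPD1 probe sets averaged under 6, where RMA understates differences, and none passed. Probe set 243372_at read 5.06 and 4.81 on the ZNF750 arrays, against 5.50 and 5.35 on the GFP arrays (difference -0.49 ± 0.133, limma adjusted p = 0.0572). It passed after cyclic loess (-0.54, adjusted p = 0.0379). Probe sets 243845_at and 241716_at had overlapping groups and differences of 0.19 ± 0.232 and -0.06 ± 0.108. HSPD1 has 22 named pseudogenes in RefSeq, and both probe sets that fell end in _s_at, a suffix for probes that can hybridise to more than 1 transcript. Without probe sets of that kind the HSPD1 value was -0.49, from 243372_at, and did not pass (adjusted p = 0.0680).

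HSPE1, the HSP10 lid, shares the gap printed above with HSPD1, but its probe set did not pass. It read 11.86 and 11.90 on the ZNF750 arrays, against 12.00 and 12.04 on the GFP arrays, a difference of -0.14 ± 0.0391 (limma adjusted p = 0.0652). The groups did not overlap, and the 95% interval, -0.23 to -0.05, did not meet that of either HSPD1 probe set that fell. The value passed with dim probe sets left out (adjusted p = 0.0321) and with each gene entered once (adjusted p = 0.0471). HSPE1 has 28 named pseudogenes in RefSeq, and its probe set, 205133_s_at, carries the same suffix. Over all members, 13 of the 21 probe sets end in _s_at or _x_at, of which 4 were lower, and 3 of the other 8 were lower.

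**Figure D2:**
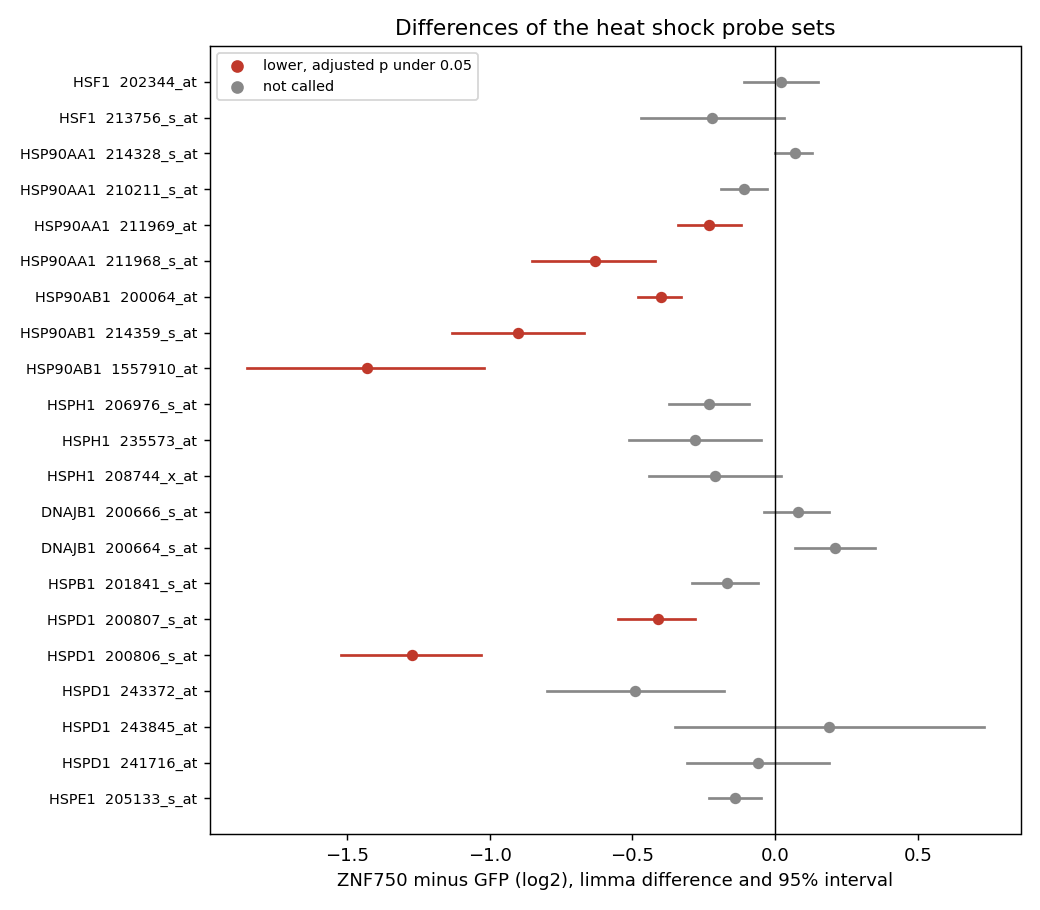
Difference ZNF750 minus GFP (log2, x axis) of each heat shock probe set, with limma's 95% interval as a line. The 7 probe sets called lower belong to HSP90AA1, HSP90AB1 and HSPD1 and range from -0.23 to -1.43, and probe sets of the same gene differ in size.

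Probe sets of 1 gene did not move by the same amount. For each gene, every probe set with a mean of 6 or more was divided by the brightest one on the same array. This removes a factor shared by all probe sets of an array, but not scaling that changes with intensity. In 8 of 9 such pairs the ZNF750 arrays did not overlap the GFP arrays, beside 64.5% of all 7873 such pairs on these arrays. The ratio was lower without overlap in 7 of the 9, beside 41.0% of all pairs, and higher without overlap in 1, beside 23.5%. An exact permutation test of 2 against 2 arrays cannot go below a two-sided p of 0.333, so no call is made, and probe sets of 1 gene often differed in this way. For HSP90AB1 1557910_at the log2 ratio was -5.32 and -4.85 on the ZNF750 arrays, against -3.87 and -4.24 on the GFP arrays, a shift of -1.03. For HSPD1 200806_s_at it was -3.67 and -3.67 on the ZNF750 arrays, against -2.70 and -2.92 on the GFP arrays, a shift of -0.86. For HSP90AA1 211968_s_at it was -3.79 and -3.81 on the ZNF750 arrays, against -2.94 and -3.25 on the GFP arrays, a shift of -0.70.

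The 2 HSPH1 pairs shifted by -0.05 and 0.02, and the DNAJB1 pair by 0.14. The pairs of the 3 genes with called falls shifted by -0.17 to -1.03. These ratios use the same values as the calls and are not a separate test of them. The gap between the ACTB control ends was 0.64 larger in ZNF750 cells, the group in which the ratios of HSP90AB1, HSPD1 and HSP90AA1 were lower. Among the GFP arrays the one with the larger ACTB gap (3.03, against 2.81) had the higher ratios of HSP90AB1 1557910_at, HSPD1 200806_s_at and HSP90AA1 211968_s_at. Among the ZNF750 arrays the one with the larger ACTB gap (3.76, against 3.35) had the lower ratio of HSP90AB1 1557910_at (-5.32, against -4.85). The ratio of HSPD1 200806_s_at was -3.67 on both ZNF750 arrays. That of HSP90AA1 211968_s_at was -3.79 on the ZNF750 array with the larger gap, against -3.81. Where the probes lie along each transcript was not analysed here, and the part of that control's shift in these ratios was not tested.

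**Figure D3:**
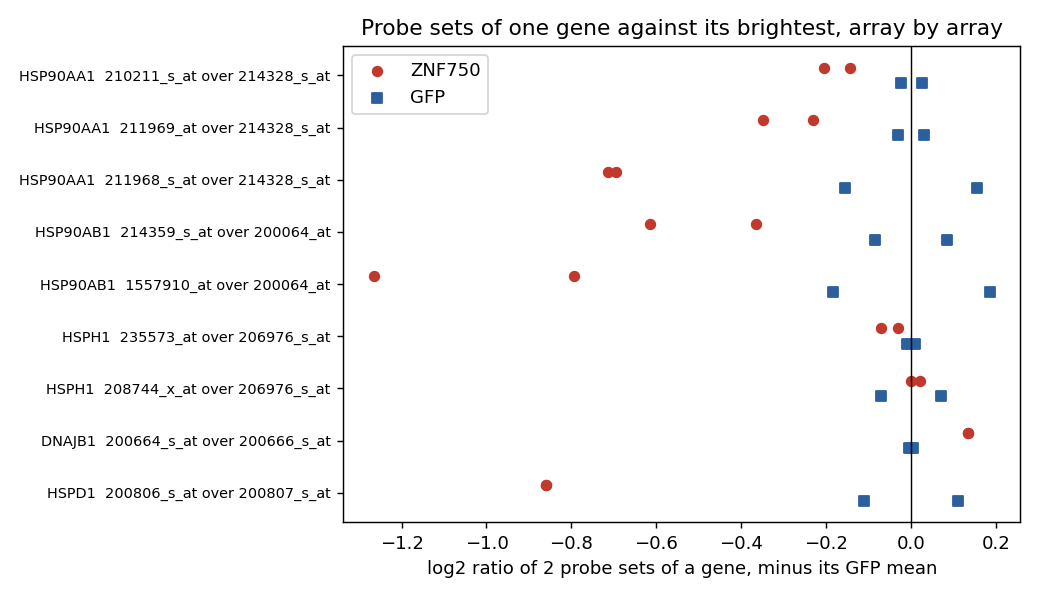
Log2 ratio of a probe set to the brightest probe set of the same gene on each array, minus the mean of the 2 GFP arrays (x axis), for 9 pairs (rows). Circles are ZNF750 arrays and squares GFP arrays, which lie on both sides of 0 by construction; the ZNF750 points lie farthest left for HSP90AB1 1557910_at, with a shift of -1.03.

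Among 66 measured genes of the wider chaperone network, 13 were lower, 3 were higher and 50 were not called by their brightest probe set. The 13 are 19.7% and the 3 are 4.55%, beside 8.75% and 6.39% of all 19775 genes lower and higher. All genes include dim ones, so this share is not matched for brightness. With probe sets averaging under 6 left out, 14 network genes were lower and 4 higher. In that fit 20.8% of bright probe sets were lower and 10.7% higher, and the number of network genes in it is not given here. The median difference was -0.03 over the 66 genes and 0.036 over all genes. Without GFP replicate 1 or 2 none of the 16 calls could be made, and leaving out either ZNF750 array left 2 lower and 1 higher. Without limma's intensity trend 1 gene, CCT2, stayed lower (adjusted p = 0.0491) and 0 were higher, so the other 15 calls ended. Of genes not called by the brightest probe set, another probe set was called lower for DNAJC7, FKBP4, HSPA9, PPID and STIP1, and higher for BAG5. The lists were chosen with earlier results of these data known. Listed names with no probe set of 1 symbol, and so no value, were HSPA1A, HSPA1B, HSF2, AHSA1 and TCP1.

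The cytosolic chaperonin TRiC, which folds actin and tubulin, had 4 of 7 measured subunit genes lower, 1 higher and a median of -0.22. The shares were 57.1% lower and 14.3% higher, beside 8.75% and 6.39% of all genes. CCT2 read 11.49 and 11.50 on the ZNF750 arrays, against 12.08 and 11.97 on the GFP arrays, a difference of -0.53 ± 0.0465 (limma adjusted p = 0.00122). CCT4 differed by -0.44 ± 0.0439 and CCT5 by -0.40 ± 0.0515 (adjusted p = 0.00188 and 0.00438). CCT7 (-0.22) and the subunit that rose, CCT6A, were named after their values were seen. CCT6A read 13.17 and 13.12 on the ZNF750 arrays, against 12.80 and 12.77 on the GFP arrays, a difference of 0.36 ± 0.0341 (adjusted p = 0.00149). Subunits of this complex therefore did not all move one way. CCT5 missed without any 1 of the 4 arrays (adjusted p from 0.0669 to 0.121), CCT4 without any but ZNF750 replicate 1, and CCT2 without either GFP array.

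Cofactors of HSP70 and HSP90 had 5 of 16 measured genes lower and 0 higher (0 also at an unadjusted limma p under 0.05), with a median of -0.09. The 5 are 31.2%, beside 8.75% of all genes lower. The nucleotide exchange factors BAG2 (-0.57 ± 0.0771), BAG1 (-0.32 ± 0.0579) and BAG3 (-0.28 ± 0.0506), of which BAG3 is induced by HSF1, fell with adjusted p of 0.00510, 0.0138 and 0.0134. BAG3 read 9.82 and 9.86 on the ZNF750 arrays, against 10.14 and 10.10 on the GFP arrays. ST13 (-0.26), an HSP70-binding protein, and PTGES3 (-0.17), the HSP90 co-chaperone p23, also fell and were named after their values were seen. BAG2 gave -0.25 by the mean of its probe sets and did not pass (adjusted p = 0.0899). BAG1 and BAG3 missed without any 1 of the 4 arrays, and BAG2 passed without ZNF750 replicate 2 (-0.65, adjusted p = 0.0489) but not without any other array.

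Of 11 other J-domain genes, 2 fell (18.2%, beside 8.75% of all genes) and 0 rose by the brightest probe set (2 higher at an unadjusted limma p under 0.05). This balance depended on the scaling, with 1 lower and 2 higher after centring on brighter probe sets and 1 lower and 1 higher after cyclic loess. DNAJA1, a cytosolic HSP70 partner, read 10.53 and 10.46 on the ZNF750 arrays, against 11.19 and 10.85 on the GFP arrays (-0.53 ± 0.0999, adjusted p = 0.0165), and gave -0.21 without _s_at probe sets. DNAJB6, which suppresses aggregation, differed by -0.25 ± 0.0581 (adjusted p = 0.0337), a call that ended after cyclic loess (0.0829) and after centring (0.0705). Of 8 other HSP70 and HSP110 genes measured, which did not include HSPA1A or HSPA1B, 2 fell and 0 rose (0 also at an unadjusted p under 0.05). The share lower was 25.0%, beside 8.75% of all genes. The 2 were HSPA14 (-0.37 ± 0.0602, adjusted p = 0.00913) and HSPA4 (-0.36 ± 0.0829, 0.0324). HSPA14 belongs to a ribosome-associated chaperone complex and HSPA4 is an HSP110-type exchange factor. HSPA4 gave -0.15 from probe sets of neither suffix (adjusted p = 0.272), and HSPA14 gave -0.23 by the mean of its probe sets and passed (0.0350). All 4 of these genes missed when any 1 array was left out.

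Of 11 other mitochondrial chaperone and protease genes, 0 fell by the brightest probe set (limma, also 0 at an unadjusted p under 0.05), beside 8.75% of all genes. In this list 1 rose, or 9.09% beside 6.39% of all genes, and 10 were not called. The list median was 0.04. For HSPA9, the mitochondrial HSP70, 1 of 4 probe sets, 200692_s_at, was lower (-0.55 ± 0.114, adjusted p = 0.0230), while the brightest gave 0.05 (adjusted p = 0.621). The gene that rose was LONP1, the ATP-dependent protease of the mitochondrial matrix, at 9.67 and 9.63 on the ZNF750 arrays, against 9.30 and 9.33 on the GFP arrays (0.34 ± 0.0540, adjusted p = 0.00879). Of 8 other small heat shock genes, 0 passed in either direction (0 also at an unadjusted limma p under 0.05). Of 5 HSF family and binding genes, HSF5 rose (20.0%, beside 6.39% of all genes) and 0 fell (1 at an unadjusted limma p under 0.05). HSF5 was dim, at 3.79 and 3.76 on the ZNF750 arrays, against 3.38 and 3.12 on the GFP arrays (0.52 ± 0.129, adjusted p = 0.0426), and it missed after cyclic loess (0.0656), without the intensity trend (0.0738) and without _s_at and _x_at probe sets (0.0536). Both LONP1 and HSF5 missed when any 1 array was left out.

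**Figure D4:**
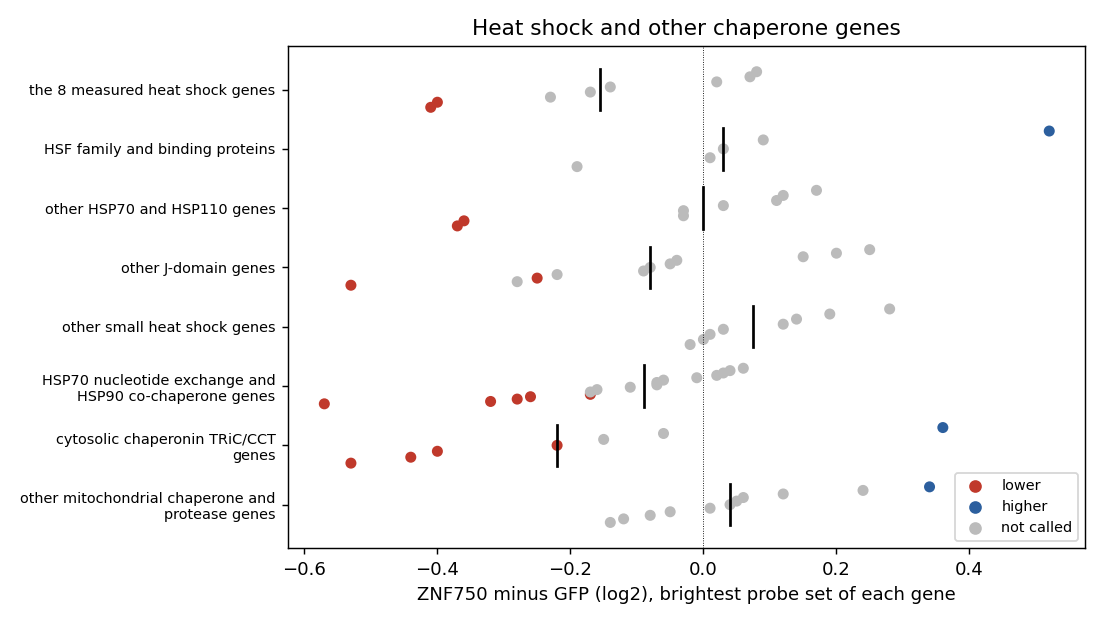
Difference ZNF750 minus GFP (log2, x axis) of the brightest probe set of each gene, for the 8 measured heat shock genes and 7 lists of related genes (rows). Points are genes, coloured by call, and black bars are list medians, which run from -0.22 for the chaperonin to 0.07 for the other small heat shock genes.

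The median profile of the 8 measured genes by their brightest probe sets, each centred on its own mean, was -0.10 and -0.04 on the ZNF750 arrays, against 0.03 and 0.09 on the GFP arrays. The nearest genes to this profile over the 4 arrays, by Euclidean distance, were MRPL33 (0.0145), SEC13 (0.0163) and C8orf33 (0.0179). Their differences were -0.13, -0.14 and -0.13, and none passed (limma adjusted p = 0.124, 0.111 and 0.151).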

How the data were processed

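The authors deposited 1 table of log2 values from Affymetrix HG-U133 Plus 2.0 arrays, with 54675 probe sets and 4 arrays. RMA, which corrects background, quantile normalizes probes and summarises each probe set, was named, with no version, per the submitters' processing notes. RMA understates differences of dim genes. Symbols came from the platform annotation: 41091 probe sets carried 1 symbol, 1801 several and 11721 none, and 41037 matched RefSeq by Entrez identifier. The 62 controls were not tested.

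Differences are ZNF750 minus GFP, from limma 3.58.1 under R 4.3.3 (lmFit, then eBayes using an intensity trend, 2 residual degrees of freedom) over all other probe sets and tested on simulated data. Errors are limma standard errors with 2 arrays a group. Precision is limited by the array number, and no detection calls were used. A gene outside the members was read by its brightest probe set. Text names all member probe sets, up to 3 called genes of each list with the largest difference, and the 3 genes of nearest profile. Members and lists were chosen with earlier results of these data known. Alternatives covered the variance prior, dim probe sets, scaling, probe set choice, threshold, replicate block and each array. Genes or listed names with no probe set of 1 symbol were not analysed here.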

Additional observations from a re-analysis of the deposited data

How the results depend on the processing

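Without the intensity trend, 3 member probe sets were lower, 0 members by the brightest probe set, 1 network gene lower and 0 higher, and 754 of all probe sets lower and 520 higher. With dim probe sets left out, 11 member probe sets were lower and 1 higher, and 5 members were lower. Cyclic loess gave 2 member probe sets and 1 member higher. Centring on brighter probe sets gave 1 member probe set, 6 network genes and 4467 of all probe sets higher. Fitting only the brightest probe set of each gene gave 4 members lower. Without _s_at and _x_at probe sets, 3 member probe sets, 8 network genes and 1845 of all probe sets were lower, and 1 network gene and 1230 probe sets higher. At an adjusted p under 0.01, 5 network genes were lower, and 1474 of all probe sets lower and 704 higher. Leaving out 1 array gave 0 to 4 member probe sets, 0 to 2 members, 0 to 2 network genes and 1 to 661 of all probe sets lower, and 0 to 1 network genes and 8 to 267 probe sets higher; the lone array of a group is then assumed to vary like the other group.

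HSP90AA1 turned to -0.23 by the mean of its probe sets and to -0.23 without _s_at and _x_at probe sets, and HSF1 to -0.10 by the mean; the construction of these settings, other probe sets, is what changed. HSPD1 243845_at ran from -0.18 without ZNF750 replicate 2 to 0.56 without ZNF750 replicate 1, and HSPD1 241716_at from -0.14 without GFP replicate 1 to 0.03 without GFP replicate 2, none passing. With the replicate number as a block, 8 member probe sets and 3 members were lower, 12 network genes lower and 2 higher. Under the block HSPB1 201841_s_at passed as lower (adjusted p = 0.0445), and DNAJB6 (0.0507) and HSF5 (0.0659) missed. The numbers may only name the arrays: the deviations of equally numbered arrays correlated at 0.13, and with 2 pairs this does not settle a pairing.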
